A study of Mus musculus with 6 samples.

Results

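A set of genes of the unfolded protein response of the endoplasmic reticulum were followed in C2C12 cells, an established mouse myoblast line, after an siRNA against the noncoding RNA H19. They are Hspa5, Hsp90b1, Hyou1, Dnajb9, Dnajc3, Sdf2l1, Pdia4, Creld2, Herpud1 and Xbp1, taken as every array probe set that the platform annotation assigns to one of these symbols. All 10 were measured, among 19938 genes with a single symbol. Both groups were wild type C2C12 cells moved at about 90% density from medium with 10% fetal bovine serum to medium with 2% horse serum. At day 1 of differentiation one group received a control siRNA and the other an siRNA against mouse H19. RNA was taken 40 h later and hybridised to Affymetrix whole-transcript arrays, 3 per group, and the deposited values are RMA signals on the log2 scale. The labels describe triplicate transfections without saying whether the cultures were separate, and p-values here therefore cover array-to-array spread that may be technical.

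The endoplasmic reticulum folds secreted and membrane proteins with the help of resident chaperones, enzymes that form disulfide bonds, and a route that returns misfolded proteins to the cytosol for degradation. When unfolded proteins accumulate, the sensors IRE1, ATF6 and PERK raise the capacity of this system: IRE1 splices the Xbp1 mRNA into the form that encodes an active transcription factor, cleaved ATF6 enters the nucleus, and PERK slows translation and favours ATF4. XBP1 and ATF6 act on promoters through short stress elements and induce the genes described here. Muscle precursors are known to use parts of this response during differentiation.

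The stress elements are shown first because several of the 10 promoters share them. The genes were listed as chaperones of the endoplasmic reticulum and XBP1 targets. Matches to these elements are therefore not independent of how the genes were chosen. RefSeq promoter windows of GRCm38.p6, from 250 bases before to 50 bases after each gene start, were found for 9 of the 10 genes, all but Hyou1. The windows were searched on both strands for the ER stress response element (ERSE, CCAAT and CCACG with 9 bases of any kind between them), for ERSE-II (ATTGG and CCACG with 1 base of any kind between them) and for the core of the unfolded protein response element (TGACGTG). Each match is printed 5′ to 3′ along the strand of its gene with 10 flanking bases on each side, and capitals mark the fixed letters of the element. On the opposite strand ERSE reads as CGTGG, a gap of 9 bases and ATTGG.
Hspa5 ERSE, chr2:34772015-34772053, plus strand: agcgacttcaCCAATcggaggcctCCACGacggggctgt
Hsp90b1 ERSE, chr10:86705628-86705666, minus strand: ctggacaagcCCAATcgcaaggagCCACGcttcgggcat
Hsp90b1 ERSE on the opposite strand, chr10:86705523-86705561, gene on the minus strand: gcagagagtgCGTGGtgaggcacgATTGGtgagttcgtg
Dnajc3 ERSE, chr14:118937817-118937855, plus strand: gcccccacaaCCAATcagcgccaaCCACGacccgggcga
Creld2 ERSE on the opposite strand, chr15:88819510-88819548, gene on the plus strand: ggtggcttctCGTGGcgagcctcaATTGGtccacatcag
Herpud1 ERSE-II, chr8:94386367-94386397, plus strand: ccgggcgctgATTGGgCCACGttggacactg
Hspa5 core of the unfolded protein response element, chr2:34771923-34771949, plus strand: ggcgtagcaaTGACGTGagttgcggag

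ERSE letters were present in 4 of the 9 windows, those of Hspa5, Hsp90b1, Dnajc3 and Creld2, and in 0.119% of all 32851 promoter windows. ERSE-II occurred in Herpud1 and in 0.0365% of all windows, and TGACGTG in Hspa5 and in 2.01%. The shorter letters CCACG and CCAAT, which also lie inside both elements on one strand or the other, were each in 8 of the 9 windows, against 32.8% and 37.4% of all windows. These matches describe letters in a window and do not show that a factor binds there. Counted from the gene start, the ERSE matches lay between positions -212 and -47.

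**Figure D1:**
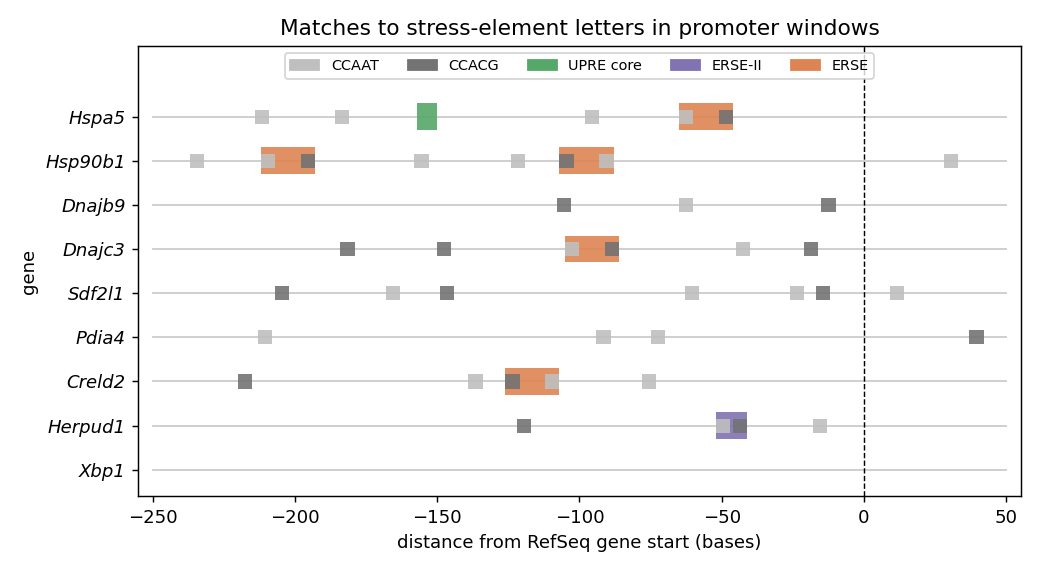
Matches to the stress-element letters on both strands of the RefSeq promoter windows of 9 genes, by distance from the gene start in bases. Wide boxes are ERSE (Hspa5, Hsp90b1, Dnajc3 and Creld2), ERSE-II (Herpud1) and TGACGTG (UPRE core, Hspa5), small boxes are CCAAT and CCACG, and Xbp1 holds none of these letters.

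The comparison asks whether H19 depletion in differentiating muscle cells was accompanied by other levels of these transcripts. It was fitted with limma over 21559 units (1 probe set per gene, plus probe sets with several symbols), and differences are H19 siRNA minus control siRNA on the log2 scale. The knockdown was visible in the probe set that carries Mir675, a microRNA lying inside H19, which is annotated to Mir675 and Supt6 together. Its signal was 12.24 ± 0.03 after control siRNA and 10.34 ± 0.05 after H19 siRNA (SD, n = 3 each), 26.9% of the control level, with a limma adjusted p of 1.80e-05. Values of all 6 arrays correlated at 0.9958 or more (Pearson, across 35556 rows), and the second H19 siRNA array had the lowest mean correlation to the others, 0.9962.

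None of the 10 genes passed an adjusted p of 0.05, where 43 of 21559 units (0.199%) did, and the smallest adjusted p of the 10 was 0.253 in limma. At an unadjusted limma p under 0.05 the count was 1 of 10, Sdf2l1, which was lower, against 10.9% of all units in either direction and 4.25% lower. Of the 10 differences 5 were above and 5 below 0, with a median of -0.0046, where 58% of all units were above 0 and their median was 0.0137. Shares of all units here and below include dim probe sets, while the 10 genes were bright. Among the 10780 units kept by a filter at the median signal, the median difference was 0.00047. Of these units 1894 had an unadjusted limma p under 0.05. After centring each array on its median 2 of the 10 were above 0, and the median of the 10 was -0.0270. The 95% interval included 0 for 9 genes, and these 9 intervals together spanned -0.14 to 0.15 on the log2 scale. As a change from the control level this is -9.34% to 11.0%. In 6 of the 10 genes the difference was smaller than its own standard error.

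The lumenal chaperones differed little between the groups. Hspa5 encodes BiP, the Hsp70 chaperone of the endoplasmic reticulum that also holds the stress sensors inactive. Its signal was 12.96, 13.02 and 12.99 after control siRNA and 12.99, 13.00 and 13.02 after H19 siRNA. The groups overlapped, and the difference of 0.02 had a 95% interval from -0.06 to 0.10 (limma adjusted p = 0.879). As a change from the control level this interval is -4.14% to 7.02%.

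Hsp90b1 encodes endoplasmin, the Hsp90 chaperone of this compartment, and its window was the one with a pair of ERSE matches. It read 12.47, 12.41 and 12.42 after control siRNA and 12.39, 12.42 and 12.43 after H19 siRNA. The highest and the lowest of these 6 values came from the first array of each group, and the groups overlapped. The difference was -0.01 (95% interval -0.10 to 0.07, limma adjusted p = 0.914). Hyou1, a large Hsp70-related protein that releases nucleotide from BiP, read 10.38, 10.45 and 10.44 after control siRNA and 10.51, 10.44 and 10.45 after H19 siRNA. The first control array was its lowest and the first H19 siRNA array its highest, while the other 4 arrays lay together. Its difference was 0.04 (95% interval -0.05 to 0.14, limma adjusted p = 0.745).

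Among the partners of BiP, Sdf2l1 had the widest difference of the 10 genes. SDF2L1 is a lumenal protein that works with DnaJ cochaperones and BiP. Its signal was 9.61, 9.73 and 9.74 after control siRNA and 9.54, 9.50 and 9.53 after H19 siRNA. All 3 H19 siRNA arrays lay below all 3 control arrays, with a gap of 0.07 between the first control array and the first H19 siRNA array, and the control arrays were the more widely spread (SD 0.07 against 0.02, n = 3 each). The difference of -0.17 (SE 0.04, 95% interval -0.27 to -0.06), or -11.0%, had an unadjusted limma p of 0.0068 and an adjusted p of 0.253. Of all units 2.65% had a smaller p. An exact permutation test gave 0.1 (two-sided), the smallest value that 3 against 3 arrays allow. Its promoter window held neither ERSE nor ERSE-II.

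The DnaJ cochaperones of BiP among the 10 genes, Dnajb9 and Dnajc3, showed no separation. Dnajb9 (ERdj4), which hands misfolded proteins to degradation and is a well known XBP1 target, read 11.03, 10.91 and 10.79 after control siRNA and 10.92, 10.89 and 10.93 after H19 siRNA. The control arrays spread over 0.24, the widest control range of the 10 genes, and all 3 H19 siRNA arrays fell inside it. The difference was 0.0046 with a 95% interval from -0.14 to 0.15, the widest among the 9 intervals that include 0 (limma adjusted p = 0.987).

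Dnajc3, a cochaperone that delivers unfolded proteins to BiP and was first described as an inhibitor of PKR-type kinases, read 10.31, 10.30 and 10.29 after control siRNA and 10.31, 10.24 and 10.28 after H19 siRNA. The second H19 siRNA array was lowest and the groups overlapped. Its difference was -0.02 (95% interval -0.11 to 0.06, limma adjusted p = 0.844). The annotation lists a second probe set for Dnajc3, which held the same value as the first on each of the 6 arrays and so adds no independent measurement.

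Of the enzymes linked to disulfide bonds, Pdia4 encodes a protein disulfide isomerase with several thioredoxin domains, and CRELD2 is a secreted and lumenal protein with isomerase activity. Pdia4 read 11.78, 11.84 and 11.76 after control siRNA and 11.72, 11.76 and 11.75 after H19 siRNA. Its groups did not overlap, H19 siRNA being lower, but the third control array lay only just above the H19 siRNA arrays. The difference was -0.05 (95% interval -0.14 to 0.03), with a limma adjusted p of 0.648 and an exact permutation p of 0.1. A second Pdia4 probe set, annotated to one predicted transcript, read 4.88 ± 0.13 and 4.86 ± 0.02 (SD, n = 3 each). It was dim, below the 20th percentile of all rows at 19.7, and its difference in the fit over all rows was -0.03 (95% interval -0.20 to 0.15). Creld2 read 10.52, 10.58 and 10.53 after control siRNA and 10.52, 10.49 and 10.55 after H19 siRNA, with overlapping groups. Its difference was -0.02 (95% interval -0.10 to 0.07, limma adjusted p = 0.885).

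Herpud1 was the one gene of the 10 whose H19 siRNA arrays all lay above the control arrays. HERPUD1 is a membrane protein that helps to assemble the degradation complex around the ubiquitin ligase HRD1. It read 12.73, 12.74 and 12.76 after control siRNA and 12.83, 12.79 and 12.82 after H19 siRNA. The arrays of each group lay close together (SD 0.02 in both, n = 3 each). The difference of 0.07 (SE 0.03, 95% interval -0.01 to 0.15), or 5.04% above the control level, had an unadjusted limma p of 0.0640, an adjusted p of 0.494 and an exact permutation p of 0.1. Groups that did not overlap were thus seen in 3 of the 10 genes, 1 higher and 2 lower, where 17.6% of all units had such groups, 10.5% higher and 7.09% lower.

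Xbp1, the transcription factor gene of the group, read 12.08, 12.10 and 12.13 after control siRNA and 12.13, 12.11 and 12.13 after H19 siRNA. The groups overlapped, and the third control array was the highest of the 6. Its difference was 0.02 (95% interval -0.06 to 0.10, limma adjusted p = 0.865). The probe set gives total Xbp1 signal, so the share of spliced Xbp1 mRNA was not measured.

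**Figure D2:**
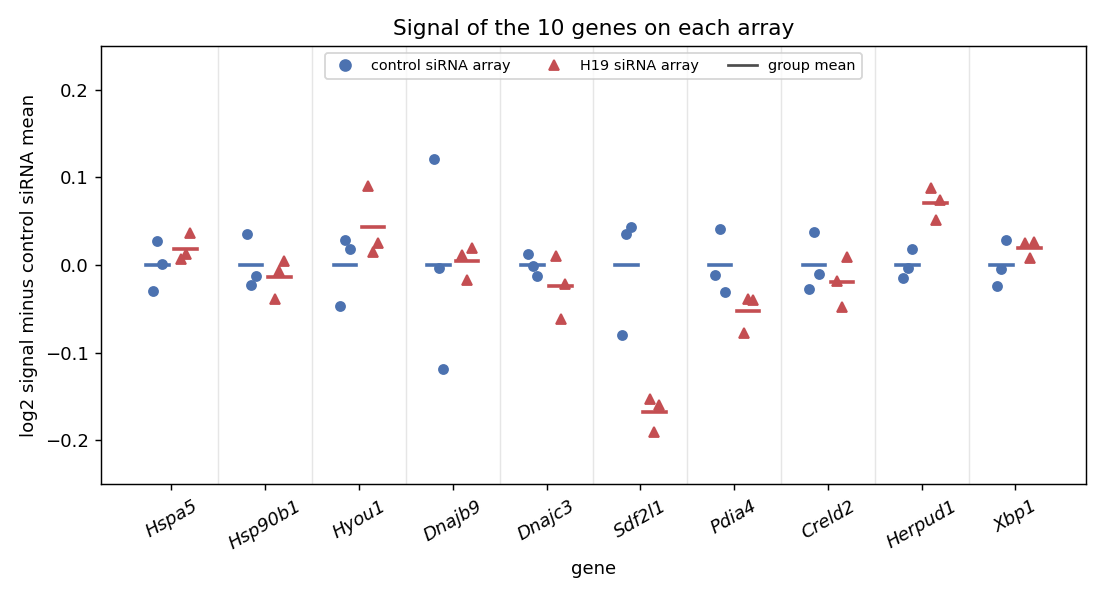
Log2 signal of each of the 10 genes on each array after subtracting the mean of its 3 control arrays. Circles are control siRNA arrays, triangles H19 siRNA arrays and bars group means, and the groups separate for Sdf2l1 and Pdia4 (H19 siRNA lower) and Herpud1 (H19 siRNA higher).

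**Figure D3:**
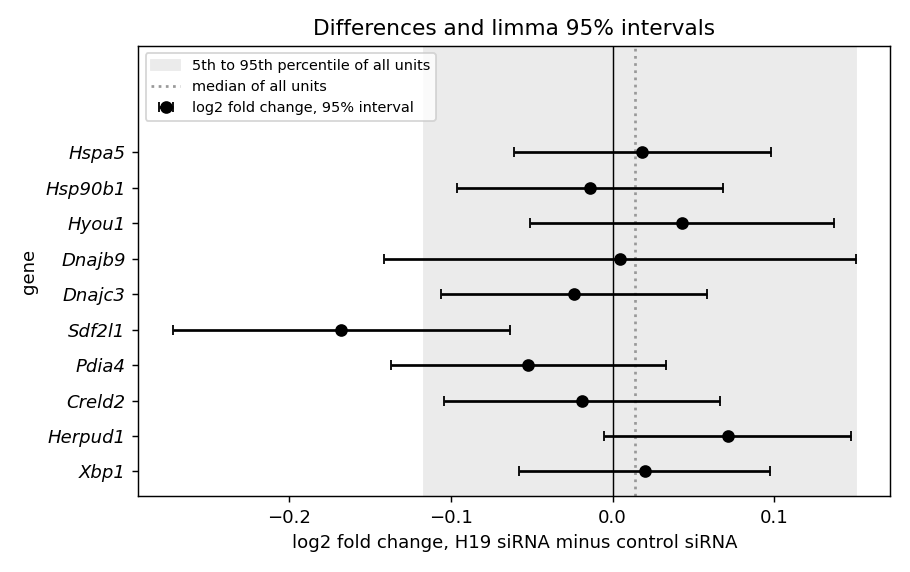
Log2 fold change of each gene, H19 siRNA minus control siRNA, with its 95% limma interval. The grey band runs from the 5th to the 95th percentile of all units (-0.12 to 0.15), the dotted line is their median, and the interval of Sdf2l1 alone leaves out 0.

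The 10 probe sets were bright, and most varied little between arrays of a group. Their mean signals lay between 9.61 and 13.00, at or above the 72.5th percentile of the units, although brightness also depends on the probes. The median SD over the 10 genes was 0.03 among control arrays and 0.02 among H19 siRNA arrays, against 0.05 and 0.06 over all units (n = 3 each). Dnajb9 and Sdf2l1 lay above the median of all units among control arrays, with SDs of 0.12 and 0.07. Standard errors ran from 0.03 for Herpud1 to 0.06 for Dnajb9. The first control siRNA array held the highest value of 3 of the 10 genes (Hsp90b1, Dnajb9 and Dnajc3) and the lowest of 4 (Hspa5, Hyou1, Herpud1 and Xbp1). The first H19 siRNA array held the highest of 2 and the lowest of 2. The median deviation from a gene's own mean ran from -0.01 on the second H19 siRNA array to 0.01 on the third, with genes going both ways on each array.

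Other genes of the same system were read from 6 lists, 103 of whose 109 entries were measured, and 0 of the 103 passed the adjusted p in limma, against 0.199% of all units. At an unadjusted limma p under 0.05 they gave the counts below, where the share over all units was 6.61% higher and 4.25% lower. In the list of stress sensors and their processing 2 of 9 genes were higher and 1 lower at that level. Eif2ak3, which encodes PERK, differed by -0.13 (95% interval -0.22 to -0.04, limma adjusted p = 0.288) and Atf6 by 0.10 (0.02 to 0.18, adjusted p = 0.349), and in both the groups did not overlap. Creb3l1, an ATF6-like membrane factor, differed by 0.20 with a limma adjusted p of 0.355, and its groups only just did not overlap. Groups did not overlap in 4 of the 9 genes, 2 higher and 2 lower, against 17.6% of all units. The median of this list was 0.04.

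Folding enzymes and cochaperones outside the 10 genes had 9 of 25 differences above 0 and a median of -0.02. At the unadjusted level 2 were higher and 2 lower. Creld1, the membrane-anchored relative of Creld2, read 8.67, 8.74 and 8.67 after control siRNA and 8.86, 8.90 and 8.93 after H19 siRNA. It differed by 0.21 (95% interval 0.11 to 0.30), with a limma adjusted p of 0.143, the smallest in this list. Fkbp2, a prolyl isomerase, differed by 0.11 (limma adjusted p = 0.330) and Dnajc10, a reductase of the lumen with a DnaJ domain, by -0.12 (limma adjusted p = 0.360). The groups of Creld1, Fkbp2 and Dnajc10 did not overlap. In the list this held for 9 of 25 genes, 5 higher and 4 lower.

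In the degradation list 7 of 18 differences were above 0, the median was -0.0077, and 2 were higher and 0 lower at the unadjusted level. Its members with the smallest p were Fam8a1, a partner of HRD1, at 0.15 (limma adjusted p = 0.215), Derl1, a derlin of the export channel, at 0.08 (0.414) and Edem1, which trims glycans of misfolded proteins, at -0.07 (0.484). For import, glycosylation and export 4 of 22 differences were above 0, with a median of -0.02 and 0 higher and 1 lower at the unadjusted level. That one was Spcs3, a signal peptidase subunit, at -0.12 (limma adjusted p = 0.269). Sec11c, also of the signal peptidase, was at 0.10 (0.592) and Sec62, of the translocon, at -0.06 (0.598).

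The PERK, ATF4 and CHOP branch had 14 of 15 differences above 0 (58% of all units) and a median of 0.10. At an unadjusted p under 0.05, 7 were higher and 0 lower, with 0 past the adjusted p in limma. Groups did not overlap in 9 of the 15, all higher, against 10.5% of all units higher. Ddit3, the gene of the factor CHOP, differed by 0.15 (95% interval 0.08 to 0.23, limma adjusted p = 0.180), Trib3, a pseudokinase induced by CHOP, by 0.19 (0.221) and Atf5, a factor related to ATF4, by 0.15 (0.237). Whether this list differs from the 10 genes was not tested. Like the other lists, it was chosen with earlier results of these data known. Eif2ak3, the gene of PERK itself, differed by -0.13, and the activity of PERK was not measured. Chaperones of the cytosol and mitochondria had a median of 0.0073 with 8 of 14 above 0. Hspa1a, the inducible cytosolic Hsp70, was at 0.14 (limma adjusted p = 0.263), Cryab at 0.09 (0.608) and Hsph1 at -0.06 (0.617).

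**Figure D4:**
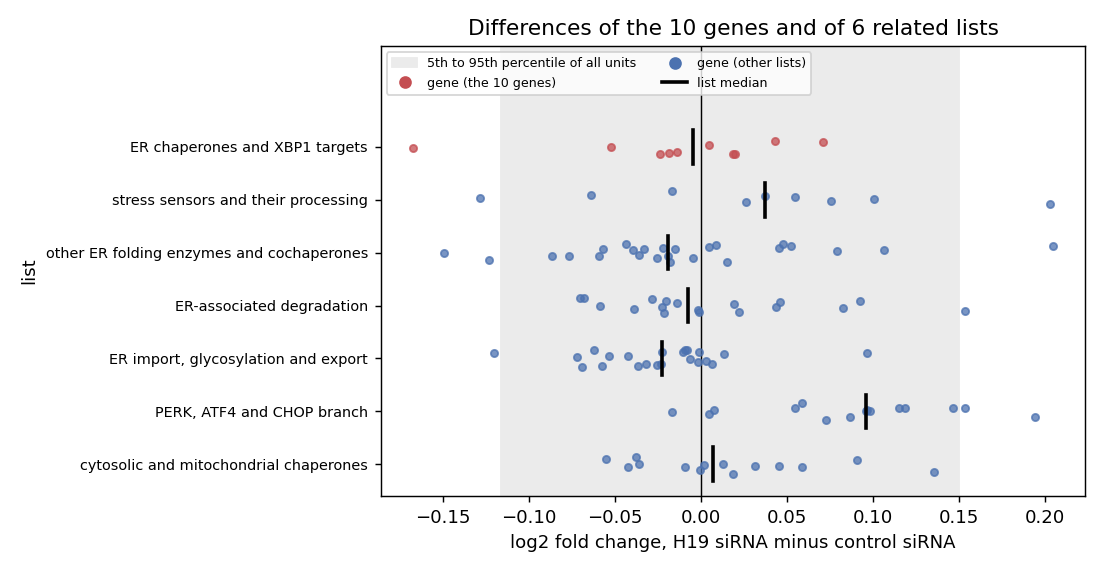
Log2 fold changes, H19 siRNA minus control siRNA, of the 10 genes and of the measured genes of 6 related lists, 1 point per gene, with list medians as black bars. The medians run from -0.02 for ER import, glycosylation and export to 0.10 for the PERK, ATF4 and CHOP branch, and the 10 genes have a median of -0.0046.

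Genes that carry the same stress elements were also read, a set chosen after values of the 10 genes were seen. ERSE or ERSE-II was found in the windows of 49 genes, 44 of them outside the 10, and 25 of these 44 were measured. Of the 25 genes 17 differences were above 0 (58% of all units), with a median of 0.02, and 0 passed the adjusted p in limma (0.199% of all units). At an unadjusted limma p under 0.05 there were 2, 1 higher and 1 lower, against 10.9% of all units. The 25 included 7 genes of the lists above, 3 above 0 and 4 below. Calr (calreticulin) and Canx (calnexin), lectin chaperones of glycoproteins, differed by -0.02 (95% interval -0.09 to 0.05) and 0.02 (-0.07 to 0.10). Dnajb11, another DnaJ cochaperone of BiP, differed by -0.04 and Derl3 by 0.02, both with overlapping groups. Ero1b, an oxidase that feeds disulfide isomerases, differed by -0.15 (95% interval -0.28 to -0.02, limma adjusted p = 0.388), and Pdia6 by -0.09 (-0.18 to 0.0038, limma adjusted p = 0.484). Syvn1, which encodes HRD1, differed by 0.09 (-0.01 to 0.19, limma adjusted p = 0.495). Its groups, like those of Calr, Ero1b and Pdia6, did not overlap, with Syvn1 higher and the others lower. Groups did not overlap in 6 of the 25 genes, 4 of them among these 7, against 17.6% of all units.

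The cell identity of the cultures was read from marker lists. The mean signals of all 11 muscle markers lay at or above the 68.6th percentile of units. Their mean log2 signal ran from 11.52 to 11.54 after control siRNA and from 11.65 to 11.71 after H19 siRNA, with 10 of 11 differences above 0 and a median of 0.13. At an unadjusted limma p under 0.05, 7 of the 11 were higher (6.61% of all units), and 8 had groups that did not overlap (10.5% of all units higher). Over all units 1 of the 11, Tnnt2, rose by 0.26 (limma adjusted p = 0.0425). The 6 fibroblast markers averaged 9.57 to 9.62 and 9.29 to 9.35, with 4 of 6 differences below 0 and a median of -0.18. Col1a1 and Thy1 were at 0.01 and 0.07, while Dcn and Lum fell by 0.50 and 0.95 (limma adjusted p = 0.00727 and 0.0227). Tnnt2 passed in 6 of 15 alternatives (limma adjusted p up to 0.326), Dcn in 9 of 15 (up to 0.135) and Lum in 7 of 14 (up to 0.143). Adipocyte, leukocyte, endothelial and neural markers had 0 called members, where 0.199% of all units were called. Of these markers only Cd68, in the leukocyte list, had an unadjusted limma p under 0.05. It differed by -0.19 (limma adjusted p = 0.278), and its groups did not overlap. What the marked cell types contribute to the values of the 10 genes was not tested. In such bulk cultures a change in the cells present and a change of RNA per cell cannot be told apart.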

How the data were processed

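Total RNA of C2C12 cells was measured on 6 Affymetrix whole-transcript arrays. The deposited log2 signals come from RMA, run by the authors in Affymetrix Expression Console according to the submitters' processing notes. RMA corrects background, applies quantile normalisation and summarises probes, which compresses differences near background. Versions were not given in the sources used here, and the number of arrays limits precision. Of 35556 rows, 21789 had 1 symbol in GEO's platform annotation, 1621 several and 12146 none. The brightest probe set stood for a gene, leaving 21559 units. These were fitted with lmFit and eBayes in limma 3.58.1 (R 4.3.3), two-sided, with no covariate or filter, Benjamini-Hochberg adjustment over all units and a threshold of 0.05. It was tested on 10 simulated data sets with 200 changed genes. Named outside the 10 genes were the H19 probe set, the 3 genes with the smallest p of each list, and any that passed. Further genes were chosen after their values were seen. The members and lists were chosen with earlier results of these data known. Alternatives covered variance model, array weights, scaling, filters, probe set choice, replicate block and each array left out. Scan dates and batches are not in the labels. No 2 arrays were identical.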

Additional observations from a re-analysis of the deposited data

How the results depend on the processing

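Across 15 alternatives 0 of the 10 genes passed the adjusted p. Sdf2l1 stayed below 0 in all 15, from -0.21 to -0.15, with an unadjusted limma p under 0.05 in each and an adjusted p from 0.0631 (intensity trend and robust variance) to 0.592 (without control siRNA replicate 2). Herpud1 stayed above 0 in all 15, from 0.05 to 0.08, with an adjusted p from 0.0626 under the trend to 0.787 after median centring and an unadjusted p under 0.05 in 4, among them 0.0015 under the trend. Pdia4, Dnajc3, Creld2 and Hyou1 also kept their sign in all 15. Centring each array on its median, which moved the median of all units from 0.0137 to -0.0087, put Hspa5 at -0.0040, Xbp1 at -0.0025 and Dnajb9 at -0.0178, left 2 of 10 differences above 0 and gave the 10 genes a median of -0.0270. Dnajb9 was at -0.000197 after a second quantile normalisation, and with one array left out it ran from -0.0545 (without control siRNA replicate 3) to 0.0653 (without control siRNA replicate 1). Hsp90b1 then ran from -0.0252 (without control siRNA replicate 2) to 0.0038 (without control siRNA replicate 1). Leaving out one array gave medians of the 10 genes from -0.0221 to 0.0056, with 4 to 6 differences above 0 and 0 called. The count of units called was 435 with the trend, 70 with array weights, 111 and 266 with filters at the 30th percentile and the median, 11 over all rows, and 1 to 21 without one array, where fewer samples also left fewer degrees of freedom. With the replicate block it was 3 units and 0 of the 10 genes. For arrays with the same number, deviations from the group means correlated at -0.02, -0.13 and -0.14. Each array correlated best with an array of another number in the other group. The 3 deviations in each group sum to 0, so these correlations depend on one another. Whether arrays with the same number were prepared together was not tested. Without detection calls, signal over background could not be judged for single probe sets.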
